A study of Mus musculus with 36 samples.

Results

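Genes widely used as readouts of the nuclear receptor PPAR alpha, 10 in number, were followed across the liver, kidney and heart of mice aged 8, 10 or 12 weeks. They were Acaa1b, Ehhadh, Cyp4a10, Cyp4a14, Pdk4, Angptl4, Vnn1, Acot1, Fgf21 and Plin2, and they were chosen by symbol, with each symbol matched to 1 Ensembl gene, so that they make up 10 of the 78239 genes in the count files. The mice were healthy male C57BL/6NCrl animals of an unmodified strain, kept on chow without restriction, and anaesthetised with ketamine and xylazine before blood and tissue were taken. Each of the 9 groups of 1 tissue and 1 age held 4 biological replicates, giving 36 libraries of polyadenylated RNA from whole tissue, so that age was the only labelled variable within a tissue. No group was described as fasted, given an agonist or lacking the receptor, and the hour of sampling was not given in the sources used here.

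PPAR alpha is a fatty acid sensor that binds DNA together with the retinoid X receptor at a repeated hexamer separated by a single base. In liver it is best known for the switch to fatty acid use in fasting, when its targets raise peroxisomal, microsomal and mitochondrial oxidation and the output of circulating factors. The 10 genes cover several of these roles. Acaa1b and Ehhadh encode enzymes of peroxisomal beta-oxidation, Cyp4a10 and Cyp4a14 fatty acid omega-hydroxylases, and Acot1 a cytosolic thioesterase that releases free fatty acids from acyl-CoA. Pdk4 encodes a kinase that shuts down pyruvate dehydrogenase, Angptl4 a secreted inhibitor of lipoprotein lipase, Fgf21 a fasting hormone, Vnn1 a pantetheinase and Plin2 a coat protein of lipid droplets.

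The known binding sequence was looked for around each start site to show what the members share on the DNA. The letters AGGTCANAGGTCA, N standing for any base, were searched on both strands of GRCm39, from 3000 bases before to 3000 bases after the start of each canonical transcript. None of the 10 members held the motif without a mismatch, against 1.02% of the 21757 protein-coding genes searched. With at most 1 mismatch it was found at 2 of 10 members, Acaa1b and Cyp4a10, and at 10.9% of all genes. With at most 2 mismatches it was found at 8 of 10 members, all but Cyp4a14 and Pdk4, and at 57.3% of all genes. A match is a match of letters only. For 4 members, those with the closest matches or with called age changes in liver or heart that held a match, a few sites are shown. They are the site with the fewest mismatches nearest the start of Acaa1b, Cyp4a10 and Ehhadh, which hold 3, 2 and 4 sites in all, and both sites of Angptl4. Each is printed with 10 flanking bases on either side and the 13 matched positions in capitals, read along the strand that carries the motif.
Acaa1b, chr9:118987104-118987116, + strand, position -949 from the start, 1 mismatch: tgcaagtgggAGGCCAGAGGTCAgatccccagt
Cyp4a10, chr4:115374024-115374036, - strand, position -1431, 1 mismatch: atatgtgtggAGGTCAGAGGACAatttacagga
Ehhadh, chr16:21607470-21607482, + strand, position -913, 2 mismatches: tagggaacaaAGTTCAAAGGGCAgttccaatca
Angptl4, chr17:34003157-34003169, - strand, position -2359, 2 mismatches: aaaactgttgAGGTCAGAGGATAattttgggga
Angptl4, chr17:33998271-33998283, + strand, position 2527 in an intron, 2 mismatches: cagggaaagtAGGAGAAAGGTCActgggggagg

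Between 21031599 and 33637390 read pairs per library were counted to genes. Levels are CPM, counts scaled to a library of 1e+06 pairs, after scaling by trimmed mean of M-values (TMM) factors over the 36 libraries. Because the most abundant genes take different shares of each tissue, these factors averaged 0.783 in liver, 0.941 in heart and 1.36 in kidney. Relative to plain library size they raised liver levels over kidney levels by 0.79 on the log2 scale. A gene was called where the p-value of edgeR's quasi-likelihood test, adjusted by Benjamini-Hochberg over all genes kept in the fit, was under 0.05. In whole tissue, fewer cells of a type and less RNA per cell cannot be told apart.

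The order of the members by level differed between the 3 tissues, although Acaa1b, Cyp4a10 and Ehhadh were among the leading members in both liver and kidney. Acaa1b, located at 9:118977091-118986161, was the most abundant of the 10 per kilobase of transcript in liver, at 503 CPM per kilobase, followed by Plin2 at 137, Cyp4a10 at 110 and Ehhadh at 108. In kidney the order began with Ehhadh at 224 CPM per kilobase, then Cyp4a10 at 105 and Acaa1b at 103. In heart Pdk4 stood alone at 246 CPM per kilobase, with Plin2 at 22.5 and Acot1 at 10.3 next. The plot of levels by library shows differences between tissues for single members. The liver-rich Acaa1b, the kidney-rich Vnn1 and the heart-rich Pdk4 were each about an order of magnitude or more away from at least 1 other tissue.

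**Figure D1:**
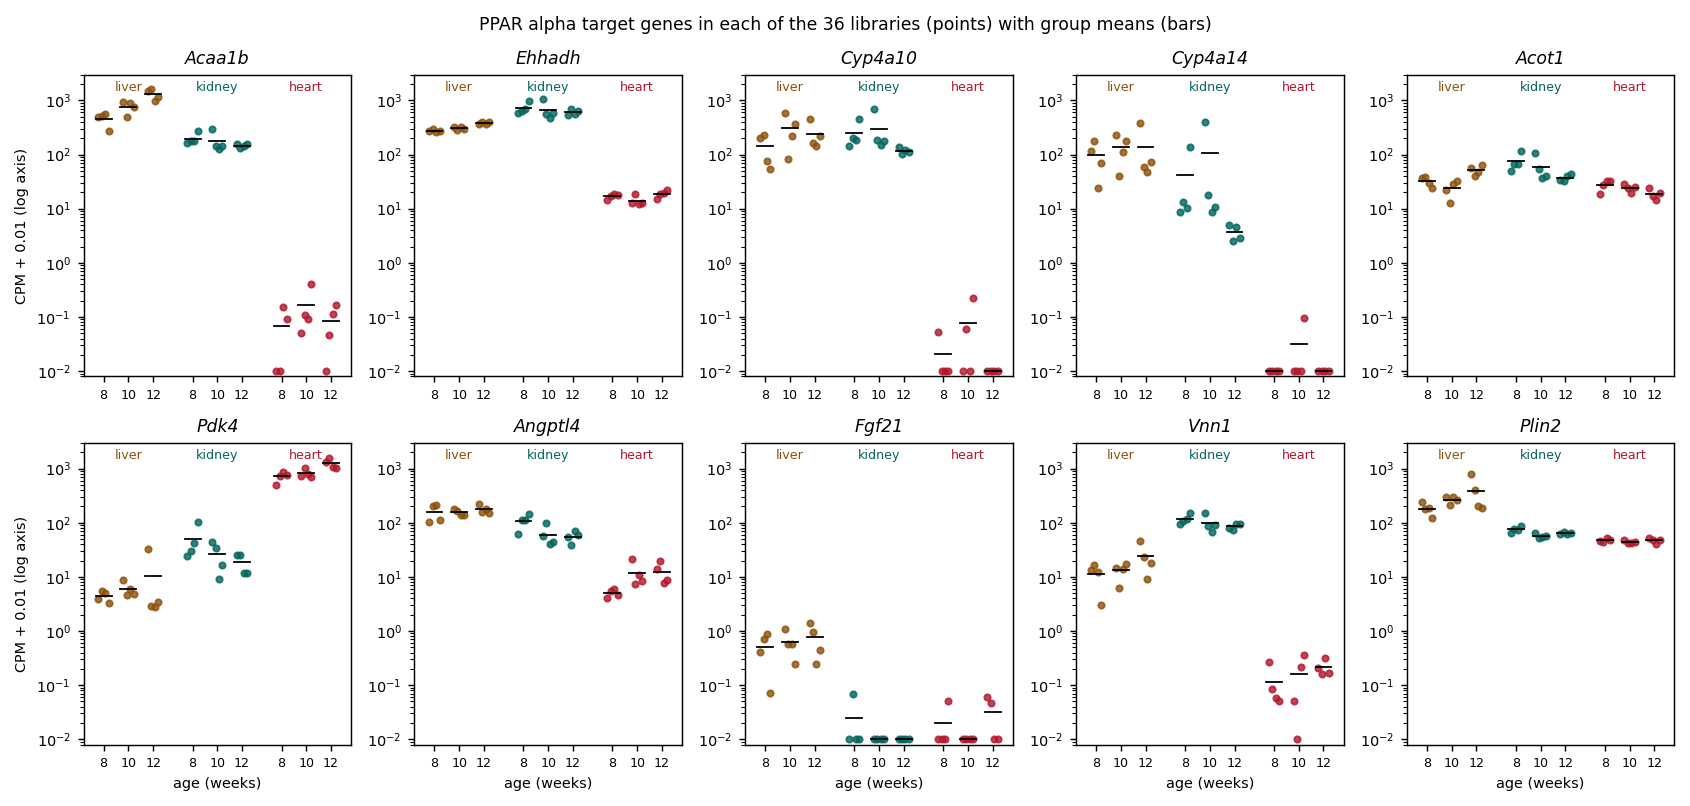
Level of each of the 10 genes in all 36 libraries, in CPM plus 0.01 on a log axis, by tissue and age in weeks. Each point is 1 library and each black bar the mean of a group of 4. Pdk4 lies between 500 and 1544 CPM in heart and between 2.73 and 32.1 CPM in liver, and 5 genes sit near the bottom of the axis in heart.

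Between liver and kidney, averaged over ages, 8 of the 9 members kept in both tissues were called, where 83.1% of all genes tested were called. Acaa1b, Cyp4a14, Plin2 and Angptl4 were higher in liver. Acaa1b averaged 849 ± 423 CPM (SD, n = 12) in liver and 174 ± 54.1 in kidney, a log2 difference of 2.16. Cyp4a14 (4:115343397-115353344) was 2.27 higher on the log2 scale, Plin2 (4:86565912-86588459) 2.04 and Angptl4 (17:33992724-34000804) 1.20. Fgf21, not kept in kidney, had 2 counts over all 12 kidney libraries. Vnn1, Pdk4, Ehhadh and Acot1 were higher in kidney. Vnn1 (10:23770586-23781241) averaged 101 ± 27.4 CPM in kidney and 16.2 ± 11 in liver, a liver minus kidney difference of -2.70 log2. Pdk4 (6:5483097-5496339) differed by -2.15, Ehhadh (16:21580036-21606563) by -1.06 and Acot1 (12:84056256-84065145) by -0.69. Cyp4a10 (4:115375461-115390849) was not called, at 232 ± 158 CPM in liver and 221 ± 172 in kidney, a difference of 0.10 with a 95% interval from -0.48 to 0.68. With library size in place of the TMM factors, an alternative chosen after the data were seen, Cyp4a10 was 0.68 log2 lower in liver (-0.68, adjusted p = 0.0307).

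The 5 members kept in heart were all called against liver, where 84.2% of all genes were called, and against kidney, where 86.1% were called. Ehhadh was 4.27 log2 higher in liver, Angptl4 4.16, Plin2 2.54 and Acot1 0.56. Pdk4, the brake on glucose oxidation, had 925 ± 291 CPM in heart against 6.91 ± 8.10 in liver (liver minus heart -7.11) and 31.5 ± 25.5 in kidney (kidney minus heart -4.96). Against heart, kidney was 5.34 log2 higher for Ehhadh, 2.96 for Angptl4, 1.25 for Acot1 and 0.50 for Plin2. Acot1 against heart was the smallest difference from liver, and with library size alone it was 0.30 with an adjusted p of 0.0929.

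Acaa1b, Cyp4a10, Cyp4a14, Vnn1 and Fgf21 were at or near 0 in heart. Over the 12 heart libraries Cyp4a14 had 2 counts in all, Fgf21 3, Cyp4a10 7, Acaa1b 27 and Vnn1 45. A count of 0 in 1 heart library allows up to 3 counts, which is 0.103 to 0.149 CPM, for counting error alone. Hepatocyte markers in heart summed to between 0.11 and 24.9 CPM, highest in 10-week replicates 4 and 2. Suppose that all albumin transcripts in the heart library with the most of them had come from liver RNA. At the mean levels of the livers, that RNA would have added 0.148 CPM of Acaa1b and 0.0284 CPM of Angptl4. The highest heart level of Acaa1b was 0.392 CPM. Single livers with more Acaa1b relative to albumin would have added more, so these values are not upper limits. The part of liver RNA in these traces was not tested. No fold change between ages is given for these 5 genes in heart or for Fgf21 in kidney.

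Paralogs of the members in the same tissues often had another distribution. Acaa1a, the paralog of Acaa1b, averaged 274 CPM in liver, 124 in kidney and 83.8 in heart. Among the omega-hydroxylases, Cyp4a31 was a kidney gene at 272 CPM against 8.13 in liver, while Cyp4a12a (436 against 106), Cyp4a12b (175 against 10.5) and Cyp4a32 (26.3 against 4.80) were higher in liver. Acot2, the mitochondrial relative of Acot1, was highest in heart at 103 CPM, with 22.9 in kidney and 4.14 in liver, and Acot4 averaged 51.0 CPM in liver, 63.0 in kidney and 1.54 in heart. Pdk1 and Pdk2 were highest in heart too, at 211 and 409 CPM, with 132 and 148 in liver. Vnn3 averaged 68.7 CPM in liver and 0.0123 in kidney, the reverse of Vnn1. Plin5 and Plin4 were at 164 and 282 CPM in heart, where Plin2 averaged 46.1. The counts of 3 members may leave out reads that align equally well to such relatives, since only uniquely aligned pairs were counted. Of the 150-base windows of the Acaa1b transcript, 13.3% also occur in Acaa1a. The shares were 12.3% for Acot1, in Acot2, Acot3 or Acot5, and 4.69% for Cyp4a10, in Cyp4a31 or Cyp4a32. Counting was not by strand, so that strand does not separate Acaa1b from the overlapping Dlec1, nor Fgf21 (7:45263301-45266963) from Fut1. Pairs ambiguous between genes were counted to none of them.

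The ages span the passage from adolescence to young adulthood, and the study asked how each organ's expression changed in it. In liver, both peroxisomal genes rose between 8 and 12 weeks. Acaa1b, the thiolase of the last step of peroxisomal beta-oxidation, was at 488, 513, 572 and 274 CPM in 8-week replicates 1 to 4, at 934, 496, 882 and 749 CPM at 10 weeks, and at 1517, 1630, 968 and 1166 CPM at 12 weeks. All 12-week livers lay above all others. It rose 2.84-fold from 8 to 12 weeks (log2 1.51 ± 0.25 SE, 95% interval 0.97 to 2.04, adjusted p = 0.0312). Ehhadh, the bifunctional enzyme that acts just before the thiolase, was at 268, 298, 265 and 277 CPM at 8 weeks, 323, 282, 323 and 296 at 10 weeks and 369, 401, 367 and 393 at 12 weeks. Its 12-week livers were again above all others, with a much narrower spread, and it rose 1.37-fold (log2 0.46 ± 0.08, interval 0.29 to 0.62, adjusted p = 0.0312).

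These were 2 of the 10 members, where 0.239% of all 14672 genes kept in liver were called between 12 and 8 weeks. All 10 members had a positive change, with a median of 0.72 log2, while over all genes 49.3% were positive and the median was -0.0039. Without 12-week replicate 1 the members' median was 0.37, with 8 of 10 positive. Acot1 was the only other member without overlap between 12 and 8 weeks, so that 3 of 10 were without overlap, as were 7.95% of all genes. It was at 36.5, 39, 30.1 and 23.8 CPM at 8 weeks, 22.4, 12.7, 28.1 and 33.1 at 10 weeks and 55.3, 39.6, 47.7 and 63.7 at 12 weeks. Its change from 8 to 12 weeks was 0.67 ± 0.25 log2 and was not called (unadjusted p = 0.0193). Between these ages 5 members had an unadjusted p under 0.05, namely Acaa1b, Ehhadh, Acot1, Plin2 and Vnn1, as had 15.1% of all genes.

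Both liver calls were near the threshold and depended on single libraries. With each of the 12 liver libraries left out in turn, Acaa1b gave 1.32 to 1.63 log2 and was called in 5 of 12 fits. It was not called without 8-week replicates 1, 2 or 3 (adjusted p = 0.0593, 0.111 and 0.0584), 10-week replicates 1 or 4 (0.0505 and 0.0613) or 12-week replicates 1 or 2 (0.0871 and 0.109). Ehhadh gave 0.44 to 0.49 log2 and was called in 3 of 12 fits. It was not called without 8-week replicates 1 to 4 (adjusted p = 0.0740, 0.0901, 0.0850 and 0.0586), without 10-week replicates 1 or 4 (0.0505 and 0.0613), or without 12-week replicates 1 to 3 (0.0871, 0.109 and 0.0647).

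The ages of the remaining liver members overlapped. Plin2, whose protein level follows stored triglyceride, was at 244, 178, 189 and 120 CPM at 8 weeks, 297, 213, 295 and 261 at 10 weeks and 782, 394, 206 and 186 at 12 weeks. The 12-week libraries spanned both the highest level of the 12 and levels inside the 8-week range, and the change of 1.10 ± 0.38 log2 was not called (unadjusted p = 0.0131). Vnn1 was at 13.1, 16.5, 12.1 and 3.06 CPM at 8 weeks and 46.6, 23.7, 8.99 and 18.1 at 12 weeks, a change of 1.11 ± 0.51. Angptl4 differed least, with 103 to 214 CPM at 8 weeks, 136 to 179 at 10 weeks and 153 to 221 at 12 weeks, and a change of 0.16 ± 0.22.

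A single 12-week liver carried the highest values of several genes. Pdk4 was at 32.1 CPM in 12-week replicate 1 and at 2.83, 2.73 and 3.49 in the others, against 3.30 to 5.42 CPM at 8 weeks. Cyp4a14 was at 377, 59.5, 47.8 and 73.2 CPM at 12 weeks and at 117, 176, 23.8 and 69.2 at 8 weeks. Cyp4a10 was at 449, 162, 142 and 215 CPM at 12 weeks and at 204, 231, 76.5 and 54.9 at 8 weeks. Replicate 1 was the highest of the 12 livers for 6 of the 10 members. Without it the change of Pdk4 from 8 to 12 weeks turned from 1.24 to -0.56 log2 and that of Cyp4a14 from 0.54 to -0.70, while Cyp4a10 moved from 0.77 to 0.27, Plin2 from 1.10 to 0.50, Vnn1 from 1.11 to 0.57 and Fgf21 from 0.57 to 0.07. None of these was called with or without it. At the other end, 8-week replicate 4 was the lowest of its 4 for 7 members, and 10-week replicate 2 was the lowest of its 4 for 8.

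Fgf21, the hormone, was close to the detection limit in every liver. It had 8, 16, 14 and 1 counts at 8 weeks, 21, 15, 11 and 6 at 10 weeks and 32, 20, 5 and 9 at 12 weeks. The highest level was 1.39 CPM, and its change of 0.57 ± 0.64 log2 between 8 and 12 weeks was not distinguishable at this depth.

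The mean of the 10-week livers lay between the other ages for both peroxisomal genes. Between 10 and 8 weeks no member was called by edgeR, DESeq2 or limma-voom, where edgeR called 0.0204% of all genes. Of the 10 changes 8 were positive and only Acaa1b had an unadjusted p under 0.05 (0.72 ± 0.24 log2, adjusted p = 0.215), as had 14.3% of all genes. Between 12 and 10 weeks edgeR and limma-voom called none, where edgeR called 0.0545% of all genes, and 3 members had an unadjusted p under 0.05, as had 14.1% of all genes. These were Acot1 at 1.10 ± 0.25 (adjusted p = 0.0786), Ehhadh at 0.32 ± 0.08 (0.0896) and Acaa1b at 0.79 ± 0.24 (0.174). The same 3 of 10 were without overlap, as were 8.09% of all genes, and DESeq2 called these 3, with adjusted p-values of 0.00229, 0.00105 and 0.0433. The share of all genes that DESeq2 called is not given, and that of edgeR does not stand in for it.

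**Figure D2:**
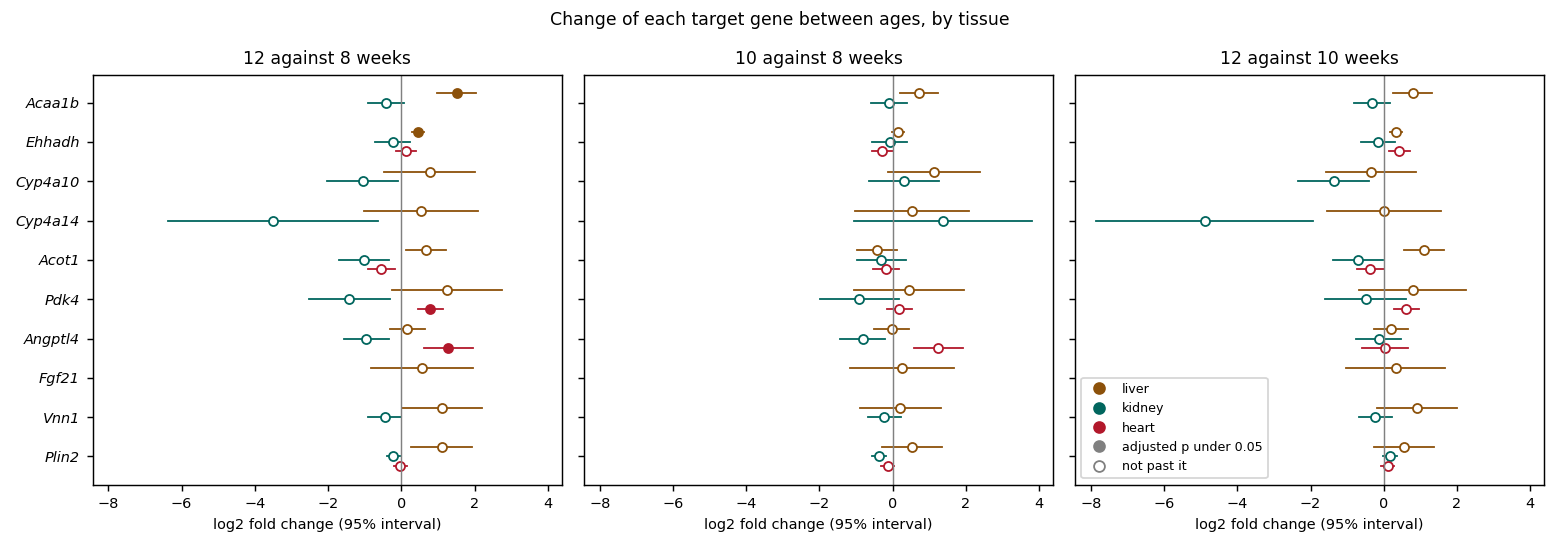
Log2 fold change between ages of each member kept in a tissue, with 95% intervals from edgeR, and a filled point where the adjusted p was under 0.05. Between 12 and 8 weeks all 10 points are above 0 in liver and all 9 are below 0 in kidney, and the filled points are Acaa1b and Ehhadh in liver and Pdk4 and Angptl4 in heart.

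Other known targets of the receptor, listed by role, were read beside the members in liver. Of 71 listed, 67 were kept in liver. The lists were written with earlier results of these data known, so that the counts below describe these data only. Between 12 and 8 weeks 60 of the 67 changes were positive with a median of 0.36 log2, and 43 had an unadjusted p under 0.05, all upward, against 15.1% of all genes in either direction. Only Decr2 was called, 1 of 67, where 0.239% of all genes were called. This peroxisomal reductase for unsaturated acyl-CoA had 215 against 139 CPM (0.62 ± 0.11 log2, adjusted p = 0.0413). By role, 14 of 16 peroxisomal targets were positive with a median of 0.37, and 18 of 20 mitochondrial oxidation targets with 0.32. So were 15 of 18 uptake, binding and droplet targets with 0.36, and 13 of 13 omega-hydroxylation and microsomal targets with 0.41. The last list is mixed, with genes such as Txnip, Ephx2, Scd1 and Fads1 beside Cyp4a genes. Between 10 and 8 weeks 42 of 67 were positive and edgeR called none. At an unadjusted p under 0.05 were 8 positive and 5 negative ones, as were 14.3% of all genes. Between 12 and 10 weeks 60 of 67 were positive with a median of 0.30, where 7481 of all 14672 genes were positive. None was called by edgeR. At an unadjusted p under 0.05 were 36 positive and 2 negative ones, as were 14.1% of all genes.

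**Figure D3:**
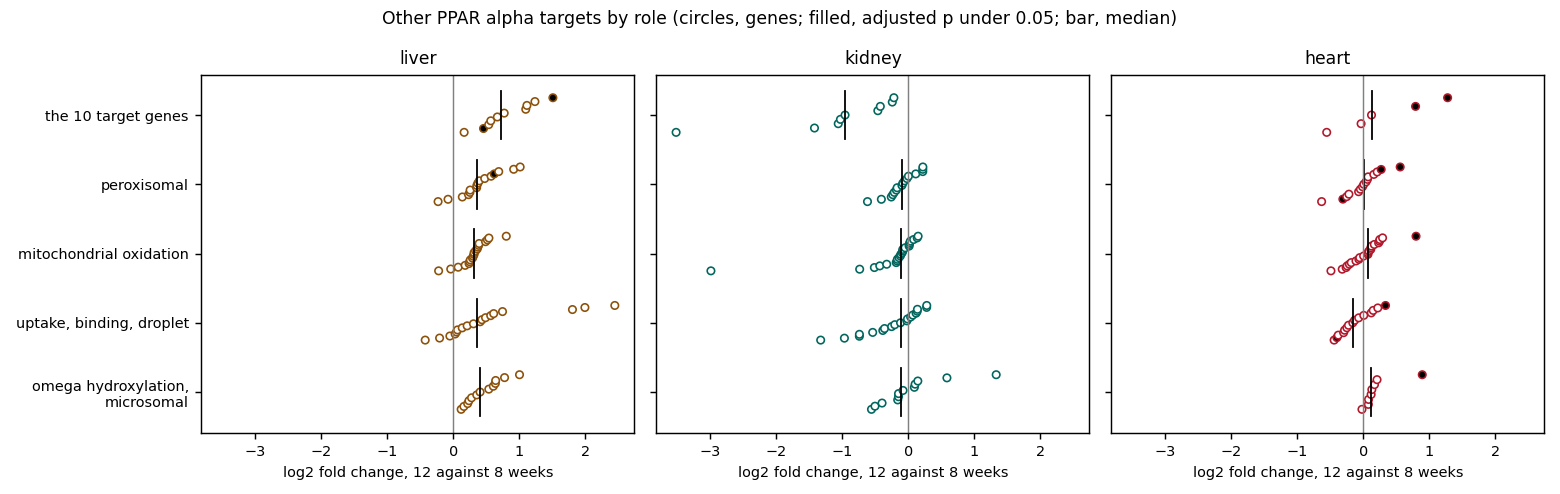
Log2 fold change at 12 against 8 weeks of the members (top row) and of each other PPAR alpha target kept in a tissue, by role. A bar marks the median of each row, and a circle is filled where the edgeR adjusted p was under 0.05. In liver the circles of every role of the other targets lie mostly above 0, with medians of 0.32 to 0.41. Among those other targets 1 circle, Decr2, is filled, and in the row of the members Acaa1b and Ehhadh are filled.

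The receptor itself was measured beside its targets. Ppara averaged 143 ± 16.4 CPM in liver, 63.6 ± 11.7 in kidney and 39.6 ± 8.39 in heart, and its partner Rxra 669 ± 48.0, 123 ± 11.3 and 83.1 ± 7.65. In liver Ppara differed by 0.07 ± 0.11 log2 and Rxra by -0.06 ± 0.08 between 8 and 12 weeks, and neither was called at any age in any tissue. The largest Ppara difference was in heart between 12 and 8 weeks, 0.47 ± 0.14 log2 with an adjusted p of 0.0561.

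Time of day and feeding also act on these genes, and markers of both are given here beside the liver values. Of 16 clock genes kept in liver edgeR called none, and between 12 and 8 weeks 2 positive and 2 negative ones had an unadjusted p under 0.05. The largest values between 12 and 8 weeks were those of Bhlhe41 (1.47 ± 0.54), Nr1d1 (1.22 ± 0.48) and Dbp (0.53 ± 0.30), and between 10 and 8 weeks that of Bmal1 (1.93 ± 0.42, adjusted p = 0.118), which averaged 6.41 CPM at 10 weeks against 1.66 at 8 and 1.80 at 12 weeks. Of 19 genes regulated by feeding and insulin, 6 were positive between 12 and 8 weeks with a median of -0.22, edgeR called none, and again 2 of each sign had an unadjusted p under 0.05. The largest were Igfbp1 (-1.02 ± 0.65), G6pc1 (-0.96 ± 0.58) and Elovl6 (-0.87 ± 0.45). Their part in the liver changes of Acaa1b and Ehhadh was not tested. The sum of 9 adipocyte markers in liver was 30.9 to 97.2 CPM at 8 weeks, 26.7 to 357 at 10 weeks and 108 to 218 at 12 weeks, and was made almost wholly of Elovl3, a gene that hepatocytes express. The defining markers Adipoq, Plin1 and Lep were at or near 0 in all 12 livers, at most 0.0519 CPM.

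Kidney gave the opposite sign. Between 12 and 8 weeks all 9 members kept in kidney were negative, with a median of -0.96 log2 against 0.0025 over all genes. Without 8-week replicate 4 the members' median was -0.57, with all 9 still negative. None was called by edgeR, DESeq2 or limma-voom, where edgeR called 0.0567% of the 17649 genes, although 7 of the 9, all but Acaa1b and Ehhadh, had an unadjusted p under 0.05, as had 11.7% of all genes. Acaa1b, Cyp4a10, Cyp4a14 and Acot1, 4 of 9, did not overlap between the ages, which held for 6.49% of all genes.

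The omega-hydroxylases showed the widest range. Cyp4a14 was at 8.62, 13.3, 10.1 and 136 CPM in 8-week kidneys, at 393, 17.5, 8.82 and 10.8 at 10 weeks and at 4.94, 2.50, 4.51 and 2.82 at 12 weeks. A single 8-week and a single 10-week kidney stood far above the rest, and the 12-week kidneys were below all others. Its change between 8 and 12 weeks was -3.51 ± 1.34 log2, and -1.52 without 8-week replicate 4. Cyp4a10 was at 143, 198, 183 and 458 CPM at 8 weeks, 678, 185, 151 and 180 at 10 weeks and 137, 100.4, 121 and 111 at 12 weeks. The same pair of kidneys was highest. Its change was -1.06 ± 0.45, and -0.57 without 8-week replicate 4.

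Acot1, Pdk4 and Angptl4 were also highest at 8 weeks in replicate 4. Acot1 was at 49.2, 67.8, 67.5 and 118 CPM at 8 weeks, 109, 54.0, 36.6 and 40.4 at 10 weeks and 33.5, 32.4, 39.9 and 42.8 at 12 weeks, a change of -1.03 ± 0.32. Pdk4 was at 24, 29.6, 42.3 and 104 CPM at 8 weeks, 44.8, 34.2, 9.24 and 16.4 at 10 weeks and 25.8, 25.1, 11.9 and 11.5 at 12 weeks, a change of -1.42 ± 0.51 that was -0.78 without 8-week replicate 4. Angptl4 was at 62.3, 110.4, 112.8 and 145 CPM at 8 weeks, 57.9, 99.2, 40.5 and 43.1 at 10 weeks and 55.3, 38.7, 69.5 and 58.2 at 12 weeks, a change of -0.96 ± 0.29 (adjusted p = 0.256). For Acot1 the 12-week kidneys were all below the 8-week kidneys, and for Pdk4 and Angptl4 the ages overlapped. In the 10-week group replicate 1 was the highest for Acot1 and Pdk4, and replicate 2 for Angptl4.

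The smallest kidney changes were in the most abundant gene and in the droplet coat. Ehhadh ranged from 594 to 961 CPM at 8 weeks, 471 to 1074 at 10 weeks and 536 to 693 at 12 weeks, with a change of -0.24 ± 0.22. Acaa1b was -0.42 ± 0.23, Vnn1 -0.46 ± 0.21 and Plin2 -0.22 ± 0.09. Without 8-week replicate 4 these were -0.074 for Ehhadh, -0.24 for Acaa1b, -0.32 for Vnn1 and -0.14 for Plin2. In the 8-week group replicate 4 was the highest for 9 of 9 members and replicate 1 the lowest for 9 of 9, and in the 10-week group replicate 1 was the highest for 8 of 9. The plot of library profiles shows these kidneys and the 12-week liver replicate 1 as the 3 libraries with the highest members on average.

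**Figure D4:**
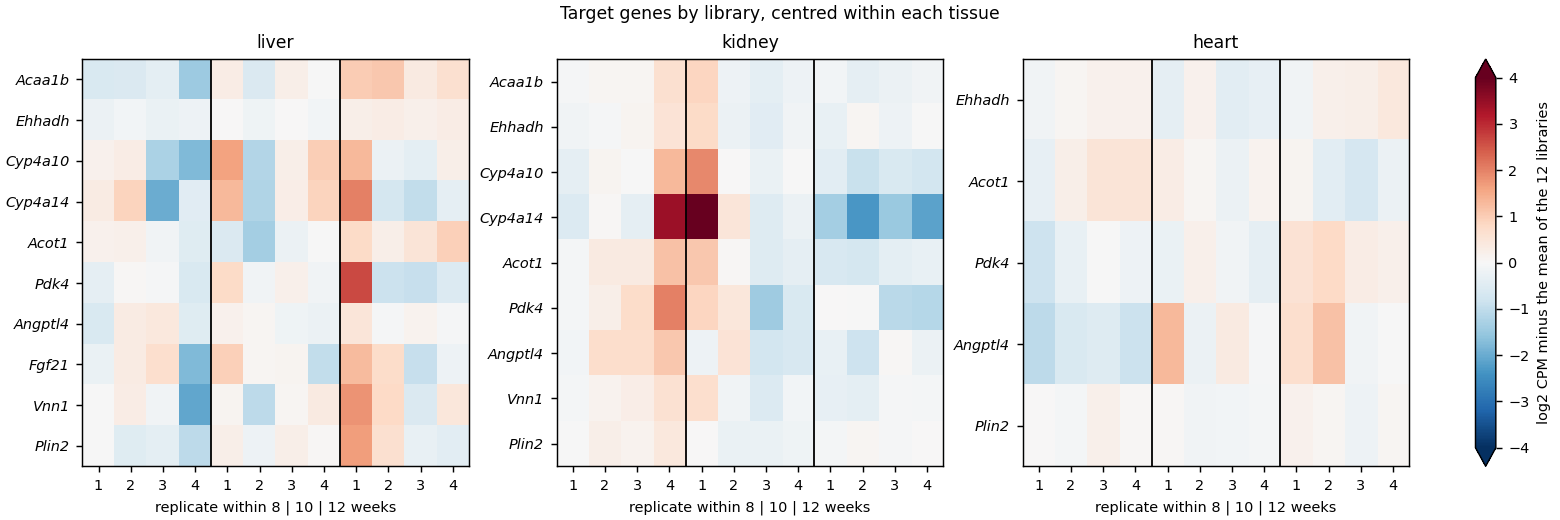
Log2 level of each member kept in a tissue, centred on its mean over the 12 libraries of that tissue, for every library by age and replicate, on a colour scale from -4 to 4. Liver 12-week replicate 1, kidney 8-week replicate 4 and kidney 10-week replicate 1 have the highest mean centred values, at 1.32, 1.25 and 1.21.

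The high kidneys were also high for Cyp4a31, a gene outside the set named here after its values were seen. It was at 401 CPM in 8-week replicate 4 and 545 in 10-week replicate 1, and at 201 to 296 CPM in the other 10 kidneys. Adipocyte markers in kidney, which surrounding fat would add, summed to 3.47 to 49.0 CPM over the 12 libraries, with 7.11 in 8-week replicate 4, 26.3 in 10-week replicate 1 and the highest sum in 8-week replicate 2. Between 12 and 8 weeks all 7 adipocyte markers kept in kidney were negative, like the members, with a median of -0.87 log2, and edgeR called none, with 0 at an unadjusted p under 0.05. Hepatocyte markers in kidney summed to between 261 and 338 CPM. Most of this was Apob, with means of 205 to 217 CPM by age, and Ttr, with 77.6 to 104. Alb was at 3.59 to 6.35 CPM in the kidney libraries. The part of fat or feeding in the high kidney levels of Cyp4a14 and its companions was not tested.

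Between 10 and 8 weeks in kidney edgeR and limma-voom called no member, where edgeR called 0.929% of all genes, and Plin2 and Angptl4 had an unadjusted p under 0.05, as had 16.5% of all genes. Plin2 was at 63.4, 77.1, 72.0 and 87.3 CPM at 8 weeks, 63.6, 52.7, 53.7 and 56.9 at 10 weeks and 61.3, 68.3, 62.1 and 65.6 at 12 weeks, with a change of -0.38 ± 0.09 (adjusted p = 0.0547) that DESeq2 called (0.00434). Angptl4 was -0.82 (adjusted p = 0.168). Among the other targets Plin5, a droplet coat of oxidative cells, fell by 1.31 ± 0.23 on the log2 scale (adjusted p = 0.0198), 1 called of 69 kept. Between 12 and 10 weeks edgeR, DESeq2 and limma-voom called no member, where edgeR called 0.482%, and 3 had an unadjusted p under 0.05, as had 16.4% of all genes. Cyp4a14 was -4.89 ± 1.38 (adjusted p = 0.108), Cyp4a10 -1.37 ± 0.45 (0.151) and Acot1 -0.71. Cyp4a14 and Cyp4a10, 2 of 9, did not overlap, which held for 9.13% of all genes. Without 10-week replicate 1 the values of Cyp4a14, Cyp4a10 and Acot1 were -1.75, -0.56 and -0.25. With both high kidneys left out, an alternative chosen after the data were seen, Cyp4a14 was -1.75 with an adjusted p of 0.0378.

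Of the 69 other targets kept in kidney, 24 were positive between 12 and 8 weeks with a median of -0.09. None was called by edgeR, where 0.0567% of all genes were. At an unadjusted p under 0.05 were 4 positive and 15 negative ones, as were 11.7% of all genes. Between 12 and 10 weeks edgeR called none either, where it called 0.482% of all genes. At that unadjusted level were 10 positive and 4 negative ones, as were 16.4% of all genes.

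In heart, where 5 members were kept, Pdk4 and Angptl4 rose with age. Pdk4 was at 500, 728, 877 and 759 CPM in 8-week hearts, at 744, 1010, 807 and 689 at 10 weeks and at 1312, 1544, 1090 and 1035 at 12 weeks. Every 12-week heart was above every younger one. Pdk4 rose 1.73-fold from 8 to 12 weeks (0.79 ± 0.16 log2, adjusted p = 0.0150) and was called with any 1 of the 12 heart libraries left out, with adjusted p-values of 0.0081 to 0.0480. Angptl4 was at 4.14, 5.58, 5.92 and 4.71 CPM at 8 weeks, 21.4, 7.21, 11 and 8.32 at 10 weeks and 13.7, 19.4, 7.85 and 8.59 at 12 weeks. All 10- and 12-week hearts were above all 8-week hearts. Angptl4 rose 2.42-fold from 8 to 12 weeks (1.28 ± 0.32 log2, adjusted p = 0.0343), a low level throughout. It was not called without 8-week replicates 1 to 4 (adjusted p = 0.0552, 0.0690, 0.0627 and 0.0884) or 12-week replicates 1 or 2 (0.0816 and 0.105), nor by limma-voom (0.0555).

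These were 2 of 5 members called, where 4.56% of the 15137 genes kept in heart were called, and 2 of 5 without overlap, where 12.7% of all genes were. Acot1 had the opposite sign, at 18.3, 26.9, 32.7 and 32.4 CPM at 8 weeks, 28.1, 24.1, 19.5 and 25.3 at 10 weeks and 24.5, 17.2, 14.5 and 19.5 at 12 weeks. The ages overlapped through 8-week replicate 1, the lowest 8-week heart for 4 of the 5 members. The change of -0.55 ± 0.17 was not called by edgeR (adjusted p = 0.0725) and was called by DESeq2 (0.0278) and, by edgeR, without 8-week replicate 1 (0.0161). Ehhadh and Plin2 were not called, with changes of 0.13 and -0.03 log2 and levels of 12.0 to 21.9 and 39.8 to 53.1 CPM over all ages. Adipocyte markers in heart summed to 109 to 147 CPM at 8 weeks, 90.9 to 109.9 at 10 weeks and 75.6 to 97.8 at 12 weeks, a fall carried by Fabp4 (-0.59 ± 0.13 log2 from 8 to 12 weeks, adjusted p = 0.0247), 1 of 3 such markers kept. Adipoq, Plin1 and Lep were at most 0.246 CPM in any heart, and Cfd was 2.61 log2 higher at 10 than at 8 weeks without being called (adjusted p = 0.107). The part of fat in the Angptl4 values was not tested.

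Between 10 and 8 weeks no member was called in heart by edgeR, DESeq2 or limma-voom, where edgeR called 1.06% of all genes, and Angptl4 and Ehhadh had an unadjusted p under 0.05, as had 15.8% of all genes. Angptl4 was 1.24 ± 0.32 higher (adjusted p = 0.0725) and 0.80 without 10-week replicate 1. It was the only 1 of 5 without overlap, where 9.73% of all genes were without it. Ehhadh was at -0.29. Between 12 and 10 weeks edgeR and limma-voom called none of the members and edgeR called 0.0396% of all genes. Pdk4 at 0.61 ± 0.16 (adjusted p = 0.227) and Ehhadh at 0.42 had an unadjusted p under 0.05, as had 11.7% of all genes. Pdk4 was 1 of 5 without overlap, as were 6.08% of all genes, and DESeq2 called it (0.0386).

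Among the other targets kept in heart, 7 of 60 were called between 12 and 8 weeks, where 4.56% of all genes were called. Those that rose were the thioredoxin inhibitor Txnip (0.89 ± 0.20 log2), the mitochondrial carrier Ucp3 (0.80 ± 0.15), the peroxisomal transporters Abcd2 (0.56 ± 0.12) and Abcd3 (0.27 ± 0.07), and the acyl-CoA synthetase Acsl1 (0.34 ± 0.07). The fatty acid transporter Slc27a1 (-0.40 ± 0.11) and the thiolase Acaa1a (-0.31 ± 0.07), the paralog of Acaa1b, fell. Over all 60 the median was 0.03 and 33 were positive. Ucp3 also rose between 10 and 12 weeks (1.00 ± 0.15), the 1 call of 60, where 0.0396% of all genes were called. Between 8 and 10 weeks edgeR called none of the 60 and 1.06% of all genes. At an unadjusted p under 0.05 were 5 positive and 4 negative ones, as were 15.8% of all genes.

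The age changes were then compared between tissues in 1 fit, by the difference of the differences. From 8 to 12 weeks all 9 members tested in liver and kidney had a higher change in liver, all with an unadjusted p under 0.05, against 13.4% of all genes, and 2 of 9 were called, where 0.439% of all genes were. The liver change of Acaa1b exceeded that of kidney by 1.94 ± 0.34 log2 (adjusted p = 0.00883), a call that held with any 1 of the 36 libraries left out. The liver change of Acot1 exceeded that of kidney by 1.70 ± 0.40 (adjusted p = 0.0487). Acot1 was called in 10 of the 36 fits with a library left out, with values of 1.40 to 1.86 and adjusted p-values of up to 0.133, the highest without kidney 8-week replicate 4, and it was not called by limma-voom (0.0503). Without both high kidneys it was 1.40 (adjusted p = 0.0662). Plin2 differed by 1.32 (adjusted p = 0.0813) and was called by DESeq2 (0.0201). Without liver 12-week replicate 1 the Plin2 difference was 0.74 and the Pdk4 difference went from 2.66 to 0.87. Without kidney 8-week replicate 4 the Cyp4a14 difference went from 4.04 to 2.06. The members share these high libraries, so the 9 differences are not separate results. From 8 to 10 weeks no tool called a member in this comparison, where edgeR called 0.0805% of all genes, and 2 had an unadjusted p under 0.05, as had 11.1% of all genes.

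Against heart, the liver change from 8 to 12 weeks differed for none of the 5 members by edgeR or limma-voom, where edgeR called 6.18% of all genes, and 3 had an unadjusted p under 0.05, as had 24.6% of all genes. These were Plin2 at 1.13 (adjusted p = 0.0611), Acot1 at 1.22 (0.0799) and Angptl4 at -1.11 (0.171), and DESeq2 called 2 of the 5, for which its share of all genes is not given. Ehhadh differed by 0.33 ± 0.25 with an interval from -0.17 to 0.83. From 8 to 10 weeks none of the 5 was called by any of the 3 tools, where edgeR called 1.53% of all genes, and 1 had an unadjusted p under 0.05, as had 18.2% of all genes.

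The spread between replicate animals differed widely between members. In liver the biological coefficient of variation was highest for Cyp4a14 at 0.678, Pdk4 at 0.641, Fgf21 at 0.571, Cyp4a10 at 0.550 and Vnn1 at 0.491, and lowest for Ehhadh at 0.105. The median of all genes kept was 0.174 and the 90th percentile 0.365, so that 6 of the 10, with Plin2 at 0.372, lay above that percentile. Acaa1b, the gene with the largest called liver change, was at 0.250. In kidney Cyp4a14 reached 1.01, Pdk4 0.485 and Cyp4a10 0.429 against a median of 0.107, while Plin2 was at 0.0927. In heart Angptl4 was at 0.294 against a median of 0.116, and Plin2 at 0.0896.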

How the data were processed

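The authors trimmed reads with cutadapt 4.2 and aligned them to GRCm39 with STAR 2.7.11b after quality checks with FastQC 0.11.9, per the submitters' processing notes. The deposited values are raw counts of uniquely aligned read pairs per Ensembl gene. The unstranded column was used. Rows that name no gene held 21.2 to 31.4% of the pairs of a library and stayed out of library sizes. Genes with a mean count of at least 10 and a count above 0 in at least 2 libraries, in at least 1 age of a tissue, were kept. Age comparisons were made within each tissue by edgeR 4.0.16 quasi-likelihood tests on all 12 libraries with TMM factors, and tissue comparisons and differences of age changes on all 36. Levels are CPM on TMM-scaled library sizes, and each ± beside a level is an SD and beside a log2 change a standard error. DESeq2 1.42.0, limma 3.58.1 (voom), other scalings, filters and left-out libraries were alternatives. Every share of all genes called is that of edgeR, and none is given for DESeq2 or limma-voom. The scripts were tested on simulated data. P-values measure the spread between the libraries labelled as replicates.

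The members and gene lists were chosen with earlier results of these data known. All 10 members are named. From the other lists, Ppara, Rxra and paralogs are named with their levels, except for items not reported here, and per list and comparison up to 3 called genes in each direction. Of clock and feeding genes beside a liver result, and of genes most alike to the members over the livers, the leading 3 and 5 are named. Intervals and floors cover counting error or replicate spread only, as stated beside them. Sequences and positions came from GRCm39 with the GENCODE M39 annotation.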

Additional observations from a re-analysis of the deposited data

Results flagged for a closer look

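Groups of 4 libraries, 71 in number, were tested member by member for a highest library far from the next. The critical value is passed by about 1 in 20 groups of independent, normally distributed values. Levels in CPM need not be normal, and the members share the same libraries, so that rate cannot be taken to hold here. Of the 71 groups, 8 had a highest library whose gap to the next exceeded the critical value. In kidney these were Acaa1b in 8-week replicate 4 (267 CPM against 164 to 178 in the others) and in 10-week replicate 1 (301 against 128 to 145), Cyp4a10 in 10-week replicate 1 (678 against 151 to 185), and Cyp4a14 in 8-week replicate 4 (136 against 8.62 to 13.3) and in 10-week replicate 1 (393 against 8.82 to 17.5). In liver they were Cyp4a14 (377 against 47.8 to 73.2 CPM) and Pdk4 (32.1 against 2.73 to 3.49 CPM), both in 12-week replicate 1. In heart it was Ehhadh in 10-week replicate 2, at 18.3 CPM against 12.0 to 12.9 CPM, a library whose hepatocyte markers summed to 20.1 CPM. At the mean levels of the livers, liver RNA would have added 0.0560 CPM of Ehhadh to the heart with the most albumin, a value that is not an upper limit.

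The change from 8 to 12 weeks differed between liver and kidney for Acaa1b by 1.94 log2 and for Acot1 by 1.70 log2, by a test of the difference itself in edgeR (adjusted p = 0.00883 and 0.0487). Acaa1b was 2.84-fold higher in liver at 12 weeks, and in kidney its change was -0.42 ± 0.23 log2. Acot1 was 0.67 ± 0.25 in liver and -1.03 ± 0.32 in kidney.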

How the results depend on the processing

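Of 1856 recomputed values for single genes, 1750 kept their direction and their side of the threshold, 8 turned in direction, 55 lost a call and 43 gained one. With no filter on low counts the members called were 1 in liver at 10 against 8 weeks, 2 at 12 against 10, 7, 3 and 3 in kidney at 12 against 8, 10 against 8 and 12 against 10, and 1 and 3 in heart at 10 against 8 and 12 against 10. Over all genes, in the same order, the calls were 350 and 271 of 34374 in liver. They were 513, 1005 and 938 of 42077 in kidney, and 798 and 308 of 36652 in heart. The same setting gave 9 and 5 members for the differences between liver and kidney at 12 and 10 against 8 weeks, and 3 and 2 between liver and heart. No share over all genes is given for these differences without the filter. Without the filter the prior degrees of freedom rose from 4.08 to 29.3 in liver and from 4.88 to 99.1 in kidney, and the calls over all genes at 12 against 8 weeks from 35 to 330 and from 10 to 513. DESeq2 called 3 members in liver at 12 against 10 weeks, 1 in kidney at 10 against 8, 1 in heart at 12 against 10 and 2 for liver against heart at 12 against 8. Limma-voom called 1 in heart at 12 against 8 and 1 for liver against kidney. No share of all genes called is given for either tool, so these counts cannot be set against the shares from edgeR. A fold minimum of 1 on the log2 scale left 1 call in liver and 1 in heart at 12 against 8 weeks. Fitting only the 2 ages compared left 1 in liver, with Ehhadh at an adjusted p of 0.0522.

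With the replicate number as a block, 0 members were called in liver at 12 against 8 weeks (Acaa1b 1.54, adjusted p = 0.0555, and Ehhadh 0.46, adjusted p = 0.0782), and no other count of members called moved by over 1.5 times under the replicate block. The numbers were not shown to pair the samples. Each age was a separate group of mice, so the number does not pair animals across ages. Deviations of same-numbered libraries of different ages in a tissue had a median correlation of 0.0087 over genes. In 11 of 36 such pairs it was best with the same number. Deviations of same-numbered libraries of different tissues correlated at -0.013 to 0.270 over genes. In 30 of 36 such pairs of libraries the correlation was best with the same number, a hint from the data only.

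With 1 library left out, the members called ranged from 0 to 2 in liver and from 1 to 2 in heart at 12 against 8 weeks, from 0 to 1 in heart and in kidney at 10 against 8, from 1 to 4 for liver against kidney and from 0 to 1 for liver against heart at 12 against 8. In kidney the call was Plin2 without 8-week replicate 1 (adjusted p = 0.0322) or Angptl4 without 10-week replicate 2 (0.0380). The liver changes at 12 against 8 weeks ranged from -0.70 to 0.99 for Cyp4a14 and from -0.56 to 1.55 for Pdk4, negative only without 12-week replicate 1. Plin2 in heart ranged from -0.089 to 0.030, and the liver minus kidney level of Cyp4a10 from -0.057 to 0.37. Alternatives chosen after seeing the data were library size alone, which turned that Cyp4a10 difference to -0.68, and leaving out both high kidneys, which gave 1 member called in kidney at 12 against 10 weeks, 1 for liver against kidney and 1 for liver against heart at 12 against 8. The causes of these shifts were not tested.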

Other observations

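The genes whose pattern over the 12 livers was most like the mean centred log2 level of the members were Cyp2d26 (Pearson r = 0.905), S1pr3 (0.898), Abcb4, which encodes a phospholipid exporter of the bile canaliculus (0.886), Gm69360 (0.880) and Rassf8 (0.876), the leading 5 of 14662 genes compared. The livers include 3 ages and share the members' own high and low libraries, so the values are a description.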
